A study of Mus musculus with 6 samples.

Results

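Genes of microglia and other macrophages were described in the orbitofrontal cortex of mice with a knockdown of the circular RNA circHomer1a. Their gene levels were close between the groups, and the difference that passed the test lay inside a gene. The P2ry12 transcript assigned most of the P2ry12 level in control libraries was near 0 in knockdown libraries, while the P2ry12 total was alike. Its exons overlap those of other P2ry12 transcripts, so its level depends on how fragments were divided among them. Of 18476 tested transcripts, 19 passed, and this transcript still passed in 9 of 15 alternative settings. It no longer passed when any 1 knockdown library or control 1 was left out. The same held with a minimum mean of 5 FPKM and with the replicate number as a block. The fractalkine receptor gene Cx3cr1 and the main gene model of Itgam (CD11b) were higher in every knockdown library than in any control library, and neither passed the test over all genes. Of all tested genes, 4.45% were higher in this way. A second, overlapping Itgam model was lower in every knockdown library, and the groups overlapped in the sum of both models.

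The genes were taken by symbol from a list of 38 microglia and macrophage genes. Of these symbols, 34 had at least 1 row in the gene table, which gives 35 rows of 13348 listed genes, because 2 overlapping gene models carry the symbol Itgam. Mrc1, Cd163, Ptprc and Cst7 had no row analysed here. A mean of at least 1 FPKM (the fragments of a feature relative to its length and to the size of the library) over the 6 libraries was required for a test. By that minimum 32 member rows were tested, and P2ry6, Irf8 and the second Itgam model were not. The transcripts of P2ry12 (4 listed) and Cx3cr1 (3 listed) were taken from the transcript table, which holds 24676 transcripts.

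The knockdown group held 3 libraries from C57BL/6 mice, 12 weeks old, whose orbitofrontal cortex was injected with a lentivirus carrying a short hairpin RNA (shRNA) against the splice junction of circHomer1a, a circular RNA of the Homer1 gene. The control group held 3 libraries of the same strain and age, from mice given a scrambled shRNA. Total RNA of the frozen tissue was made into libraries with a strand-preserving kit. The promoter that drives the shRNA, the infected cell types and the time since injection are left unstated by the labels. Because circHomer1a was not among the listed features, the knockdown itself was not checked.

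Microglia are the resident macrophages of the brain. Neurons signal to them through membrane-bound fractalkine, which binds CX3CR1, and through nucleotides, which bind P2Y12 and other purinergic receptors and steer microglial processes to sites of release. Their survival depends on CSF1R signalling, and they supply the C1q proteins that start the classical complement cascade and tag synapses. The samples are bulk tissue, so fewer cells of a type and less RNA per cell cannot be told apart.

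The defining markers of microglia were present in every library. The lowest value of Csf1r, the receptor for CSF1 and IL-34, was 13.7 FPKM, that of Tmem119, a microglial membrane protein, was 8.02 FPKM, and that of C1qa was 48.3 FPKM. Mean levels of the members over the 6 libraries lay between 0.559 FPKM (P2ry6) and 104 FPKM (Ctsd), with a median of 6.39 FPKM among the tested members, against 6.58 FPKM for all tested genes. The scavenger receptor genes Mrc1 and Cd163, which mark perivascular macrophages, were among the symbols with no row, as was Ptprc, which encodes the leukocyte antigen CD45.

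The sequences that the transcript results turn on are shown first. P2ry12-202, P2ry12-203 and P2ry12-204 differ in their first exon and share an identical coding sequence of 1041 bases, 347 codons with the stop left out. P2ry12-205 carries the first 348 of these bases. The 3 listed Cx3cr1 transcripts likewise share a coding sequence of 1062 bases, or 354 codons. The first 60 coding bases are given from GENCODE M21 transcripts (GRCm38), 5′ to 3′, with the start codon in capitals, and each holds for every listed transcript of its gene.
P2ry12 coding start: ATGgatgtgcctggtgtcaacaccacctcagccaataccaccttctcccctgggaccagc
Cx3cr1 coding start: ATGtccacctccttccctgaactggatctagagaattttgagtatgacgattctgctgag

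For Itgam and Tgfbr1 the starts are shown, because the 2 Itgam models start close together while Tgfbr1 has 2 separate starts. The 250 bases before each start are given from RefSeq (GRCm38.p6), both genes being on the plus strand. No annotated exon lies in these 3 windows, and the bases are in lower case with no motif match to mark. The first is chr7:128062390-128062639, before the start of the main Itgam model at 128062640 and 43 bases before the annotated span of the second model begins. The next is chr4:47352972-47353221, before the start of Tgfbr1-201. The last is chr4:47385966-47386215, before the start of Tgfbr1-203.
Itgam start: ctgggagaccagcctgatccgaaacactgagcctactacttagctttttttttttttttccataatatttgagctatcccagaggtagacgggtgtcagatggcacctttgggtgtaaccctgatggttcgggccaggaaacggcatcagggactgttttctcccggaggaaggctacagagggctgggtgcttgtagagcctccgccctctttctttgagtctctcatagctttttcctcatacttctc
Tgfbr1-201 start: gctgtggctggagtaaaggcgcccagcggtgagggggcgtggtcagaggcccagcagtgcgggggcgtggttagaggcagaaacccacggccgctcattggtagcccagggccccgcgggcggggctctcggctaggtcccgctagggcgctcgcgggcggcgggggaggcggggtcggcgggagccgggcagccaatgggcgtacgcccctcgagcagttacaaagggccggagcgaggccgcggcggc
Tgfbr1-203 start: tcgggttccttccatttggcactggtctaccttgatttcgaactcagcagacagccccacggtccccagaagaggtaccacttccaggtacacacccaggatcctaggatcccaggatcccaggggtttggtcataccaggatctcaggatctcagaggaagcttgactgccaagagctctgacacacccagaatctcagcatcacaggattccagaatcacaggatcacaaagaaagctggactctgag
The motif GAGGAAGT, bound by the myeloid transcription factor PU.1, was searched on both strands in windows of 300 bases, 250 before and 50 after each RefSeq start. It was found in 3 of 32 windows of 28 matched member genes (C1qc, Cd53 and Ctss) and in 3.2% of the 32851 windows of the table. In C1qc the match lies before the start, with its first base at position -195, and in Cd53 and Ctss it lies after the start. A match is a match of letters only.

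Across the gene totals, limma called 0 of 32 tested members at an adjusted p under 0.05, where it called 0.0% of 11961 genes. The lowest adjusted p of a member was 0.948, against 0.0692 over all genes. An unadjusted limma p under 0.05 was found for 2 members, Cx3cr1 and Itgam, both higher in knockdown libraries, where 3.57% of all tested genes had one (2.07% higher and 1.5% lower). The groups did not overlap in 7.92% of all tested genes. The same 2 members were higher in every knockdown library than in any control library, against 4.45% of all tested genes, and 0 tested members were lower in every knockdown library, against 3.47%. The second Itgam model, too low to be tested, was lower in every knockdown library. The smallest unadjusted limma p of the other 30 tested members was 0.0855 (Tgfbr1).

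Fold changes of the members had about the size of those of other genes. The log2 fold change, always knockdown over control on the log2(FPKM + 1) scale, was positive in 14 and negative in 18 members, a positive share of 43.75% against 55.7% of all tested genes. Its median was -0.02, against 0.02 for all tested genes, and it ran from -0.28 (Fcrls) to 1.10 (Cx3cr1). It was within 0.2 of 0 in 26 of 32 members, or 81.25%, against 80.1% of all tested genes. The median half-width of its 95% interval, not adjusted for the number of genes, was 0.30 for members and 0.29 for all tested genes. It does not give the size of change that would pass over all genes, as Cx3cr1 at 1.10 did not pass.

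**Figure D1:**
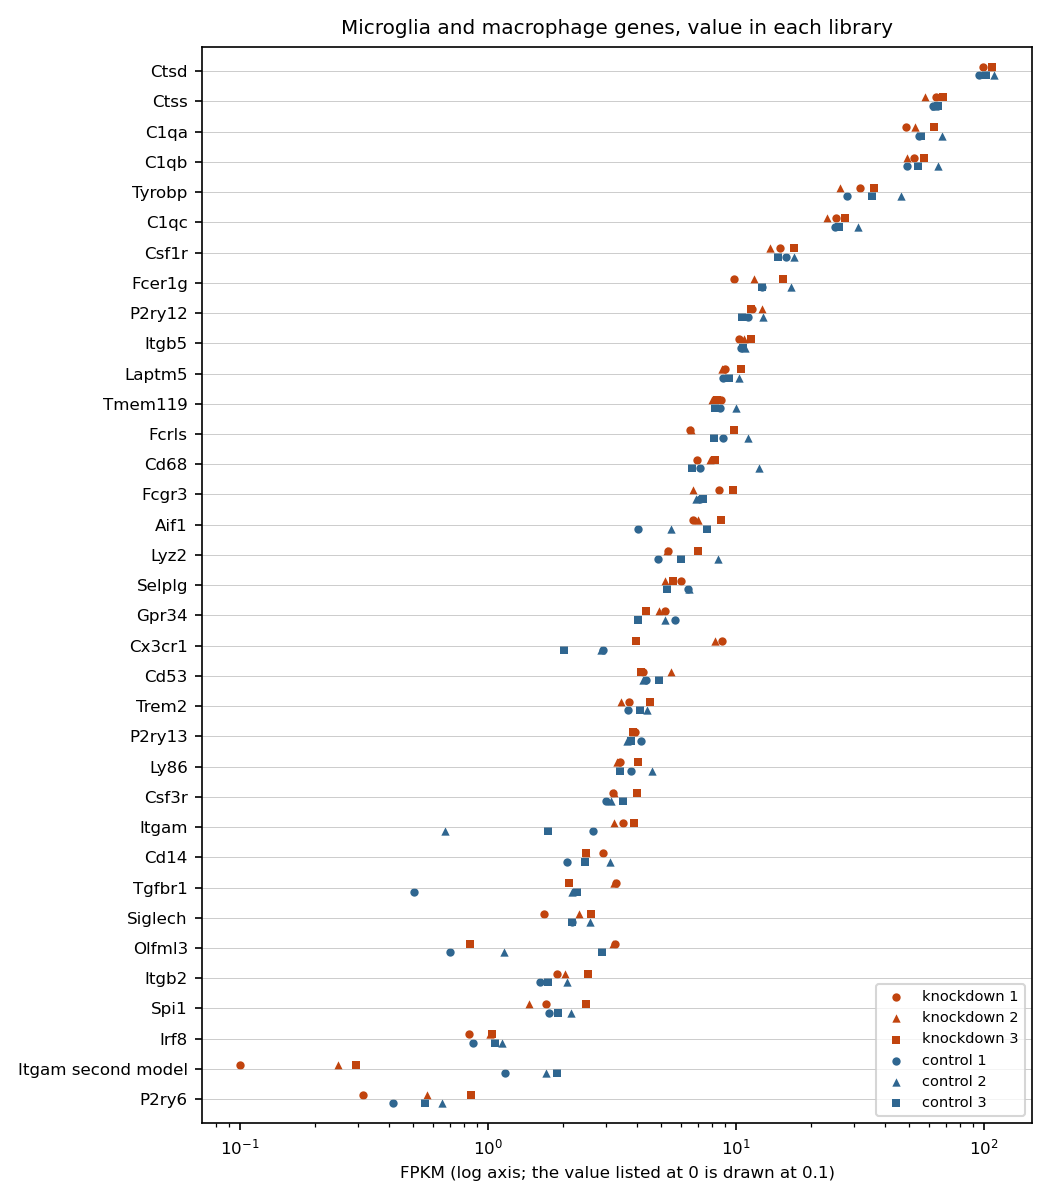
FPKM of each member gene row in each library on a log axis, with genes ordered by their mean, knockdown libraries in red above control libraries in blue, and symbols for the replicate number. Cx3cr1 and the main Itgam model have their 3 knockdown values to the right of their 3 control values, and the second Itgam model has them to the left.

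**Figure D2:**
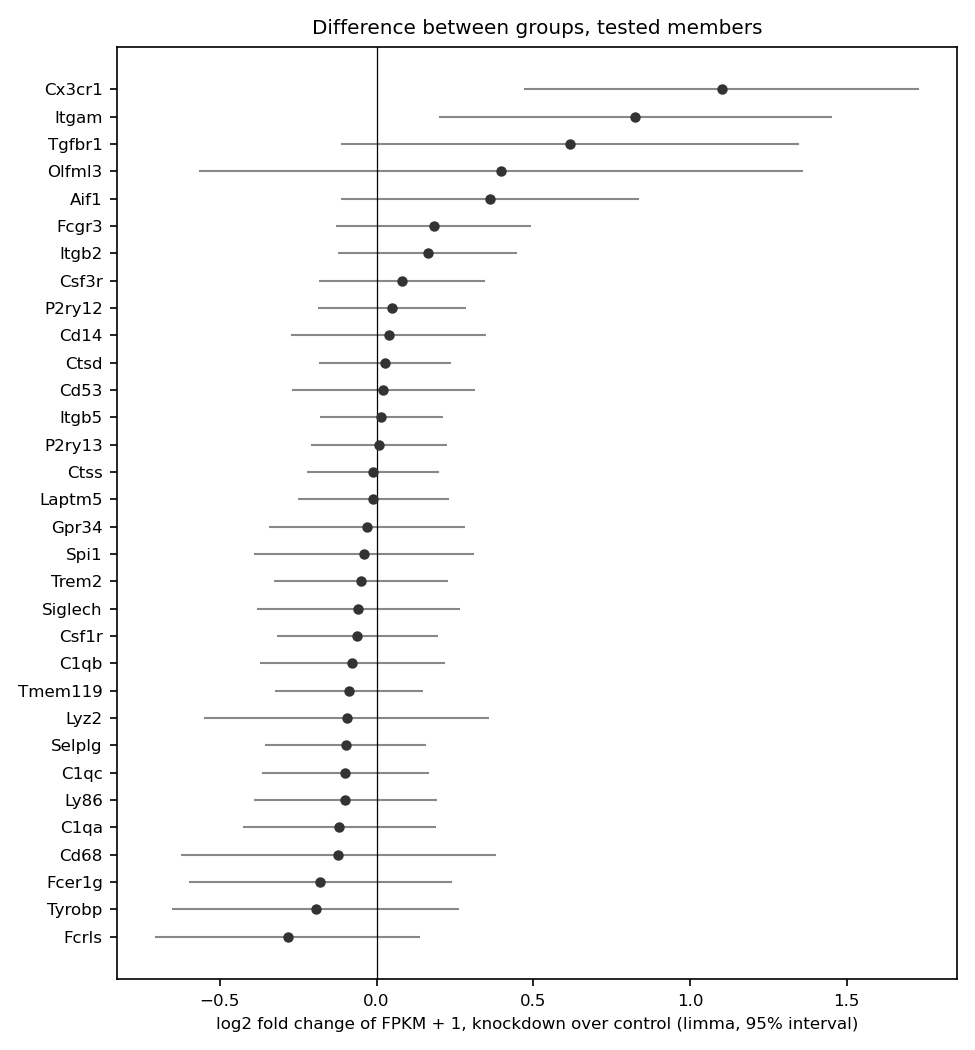
Log2 fold change of FPKM + 1, knockdown over control, for the 32 tested member rows, with points for the limma estimate and bars for its 95% interval. Estimates run from -0.28 for Fcrls to 1.10 for Cx3cr1, and the intervals of Cx3cr1 and Itgam lie above 0.

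P2ry12, the ADP receptor that marks resting microglia (ENSMUSG00000036353.13, chr3:59216272-59262871, minus strand), was at like levels in both groups as a gene. It had 11.6, 12.7 and 11.5 FPKM in knockdown 1, 2 and 3, against 11.2, 12.8 and 10.5 FPKM in control 1, 2 and 3. The means were 11.9 ± 0.677 FPKM in knockdown and 11.5 ± 1.17 FPKM in control libraries (SD, n = 3 each), and the groups overlapped. The log2 fold change was 0.05, with a 95% interval of -0.19 to 0.28 (limma adjusted p = 0.967).

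Inside the gene, the level assigned to P2ry12-202 was lower in knockdown libraries. This transcript of 3 exons was at 0.000624, 0.042 and 0 FPKM in knockdown 1, 2 and 3, against 12.1, 15.0 and 7.28 FPKM in control 1, 2 and 3. The groups lay far apart, with each knockdown library at or near 0. The log2 fold change was -3.57, with a 95% interval of -4.24 to -2.90 (limma adjusted p = 0.0304 over 18476 transcripts). It was 1 of 19 transcripts called over the whole table, or 0.103% (0.0433% lower and 0.0595% higher), and ranked 10 by p. Among the 54 listed transcripts of the member genes, 45 were tested and P2ry12-202 was the 1 called. The call did not hold when knockdown 1 (adjusted p = 0.0705), knockdown 2 (0.0867), knockdown 3 (0.0691) or control 1 (0.0806) was left out, at log2 fold changes between -3.59 and -3.50, or where a mean of 5 FPKM was needed (adjusted p = 0.374).

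The remaining P2ry12 level in knockdown libraries was assigned to different transcripts in different libraries. P2ry12-204, whose start lies 114 bases downstream of the RefSeq start, had 12.8, 14.6 and 0 FPKM in knockdown 1, 2 and 3, against 0.299, 0.0357 and 0 FPKM in control 1, 2 and 3. It was high in knockdown 1 and 2 and listed at 0 in knockdown 3, so the groups overlapped. Its log2 fold change was 2.44, with a 95% interval of -0.26 to 5.15 (limma adjusted p = 0.950). Without knockdown 3 it was 3.74 and was called (limma adjusted p = 0.0228). P2ry12-203, of 4 exons, had 0.164, 0 and 11.3 FPKM in knockdown 1, 2 and 3, against 0.566, 0.0401 and 4.18 FPKM in control 1, 2 and 3. It was the leading transcript of knockdown 3 and the second of control 3, and its log2 fold change was 0.26 (limma adjusted p = 0.993).

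As shares of the summed transcript FPKM of the gene, P2ry12-202 held 0.00412%, 0.268% and 0% in knockdown 1, 2 and 3, against 83.7%, 91.0% and 55.2% in control 1, 2 and 3. The groups did not overlap, and the two-sided exact permutation p was 0.1, the smallest that 3 against 3 libraries can give. P2ry12-204 held 84.8%, 93.4% and 0% in knockdown 1, 2 and 3, against 2.07%, 0.216% and 0% in control 1, 2 and 3. P2ry12-203 held 72.9% in knockdown 3 and 31.7% in control 3, and at most 3.91% in the other 4 libraries. P2ry12-205, the short coding model, had 2.15, 0.998 and 4.21 FPKM in knockdown 1, 2 and 3, against 1.5, 1.41 and 1.71 FPKM in control 1, 2 and 3.

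The P2ry12 transcripts that differed in level are alike in their coding part and differ at their 5′ end. The first exon of P2ry12-202 lies at chr3:59220219-59220259, that of P2ry12-203 at chr3:59227451-59227581 and that of P2ry12-204 at chr3:59262774-59262871, by GENCODE M21. Their starts are 42726, 35404 and 114 bases downstream of the RefSeq start. The coding sequence begins at base 209, 364 and 266 of the transcripts. The first exon of P2ry12-202 lies within exon 2 of P2ry12-203 (chr3:59220219-59220283). Its other exons overlap those of P2ry12-203 and P2ry12-204. How fragments were divided between these transcripts is not stated, so the level of each alone is uncertain. P2ry12 lies inside Med12l, a gene of the opposite strand, and the sources used here do not say whether the counting used strand.

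**Figure D3:**
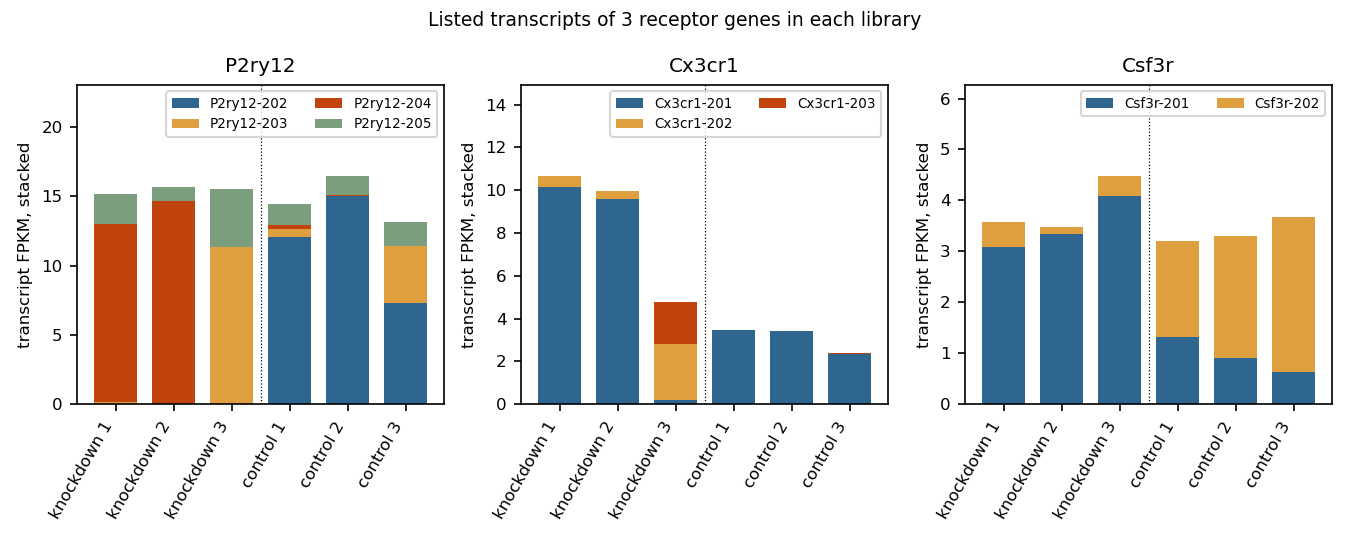
FPKM of the listed transcripts of P2ry12, Cx3cr1 and Csf3r, stacked for each library, with knockdown libraries left of the dotted line and control libraries right of it. The blue part of the P2ry12 bars (P2ry12-202) is visible in the 3 control libraries alone, and the Cx3cr1 bar of knockdown 3 is made of other transcripts than those of knockdown 1 and 2.

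Cx3cr1, the receptor for neuronal fractalkine (ENSMUSG00000052336.7, chr9:119901616-120069879, minus strand), had the largest fold change among the tested members. It had 8.82, 8.23 and 3.94 FPKM in knockdown 1, 2 and 3, against 2.90, 2.86 and 2.02 FPKM in control 1, 2 and 3. The groups did not overlap, and knockdown 3 lay nearer to the controls than to the other 2 knockdown libraries. The means were 7.0 ± 2.66 FPKM in knockdown and 2.59 ± 0.493 FPKM in control libraries (SD, n = 3 each), a ratio of 2.70. The log2 fold change was 1.10, with a 95% interval of 0.47 to 1.73 (unadjusted limma p = 0.0043, adjusted p = 0.948 over all genes, two-sided exact permutation p = 0.1). It was positive under each of 14 alternatives, between 0.921 and 1.42, with limma adjusted p from 0.17 to 1.

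The gene value of Cx3cr1 was made of different transcripts in knockdown 3 than in the other libraries. Cx3cr1-201, of 2 exons, had 10.1, 9.58 and 0.176 FPKM in knockdown 1, 2 and 3, against 3.48, 3.43 and 2.34 FPKM in control 1, 2 and 3. It was highest in knockdown 1 and 2 and lowest in knockdown 3, and its log2 fold change was 0.36 (limma adjusted p = 0.983). Cx3cr1-202 had 0.524, 0.360 and 2.65 FPKM in knockdown 1, 2 and 3 and was listed at 0 in each control library. This transcript owes its long reach to a last exon of 12 bases, chr9:119901616-119901627, which lies in the Wdr48 gene of the opposite strand. Cx3cr1-203, which starts 1583 bases upstream of the RefSeq start, had 1.95 FPKM in knockdown 3 and 0.0794 FPKM in control 3 and was listed at 0 in the other 4 libraries. The mean of both transcripts was under the minimum for a test.

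As shares of the summed transcript FPKM, Cx3cr1-201 held 95.1%, 96.4% and 3.70% in knockdown 1, 2 and 3, against 100%, 100% and 96.7% in control 1, 2 and 3. The groups did not overlap (two-sided exact permutation p = 0.1), but knockdown 1 and 2 lay within 2 percentage points of control 3 while knockdown 3 stood alone.

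The other homeostatic receptors of microglia overlapped between groups. Fcrls, an Fc receptor-like scavenger receptor found on mouse microglia, had 6.49, 6.56 and 9.82 FPKM in knockdown 1, 2 and 3, against 8.88, 11.2 and 8.15 FPKM in control 1, 2 and 3, and its groups overlapped. Tmem119 had 8.66, 8.02 and 8.35 FPKM in knockdown libraries, against 8.59, 10.0 and 8.23 FPKM in control libraries. P2ry13, an ADP receptor encoded beside P2ry12, ranged from 3.84 to 3.92 FPKM in knockdown and from 3.62 to 4.15 FPKM in control libraries. Gpr34, a lysophosphatidylserine receptor, ranged from 4.34 to 5.17 FPKM in knockdown and from 4.02 to 5.69 FPKM in control libraries. Selplg, the P-selectin ligand, ranged from 5.16 to 5.98 FPKM in knockdown and from 5.28 to 6.44 FPKM in control libraries. Siglech, a sialic acid-binding lectin paired with the adaptor DAP12, ranged from 1.68 to 2.61 FPKM and from 2.18 to 2.59 FPKM. P2ry6, the UDP receptor, was below the minimum, from 0.313 to 0.855 FPKM in knockdown and from 0.413 to 0.652 FPKM in control libraries. The receptor group as a whole had a median log2 fold change of -0.04 over 8 tested members, 3 positive and 5 negative.

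Csf1r, on which microglial survival depends, had 15.0, 13.7 and 17.2 FPKM in knockdown 1, 2 and 3, against 15.96, 17.2 and 14.8 FPKM in control 1, 2 and 3. The highest values of both groups were alike, and the means were 15.3 ± 1.78 FPKM in knockdown and 15.97 ± 1.19 FPKM in control libraries (SD, n = 3 each; log2 fold change -0.06, limma adjusted p = 0.960). Tgfbr1, the type I receptor for TGF-β, a factor that maintains the microglial state, had 3.28, 3.23 and 2.13 FPKM in knockdown 1, 2 and 3, against 0.504, 2.18 and 2.28 FPKM in control 1, 2 and 3. Control 1 was low and the groups overlapped (log2 fold change 0.62, limma adjusted p = 0.948). Without control 1 the log2 fold change was 0.252. Tgfbr1 is also expressed by other brain cell types.

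In control 1 the Tgfbr1 level was assigned to the transcript of the other start. Tgfbr1-201 had 3.56, 3.44 and 2.30 FPKM in knockdown 1, 2 and 3, against 0, 2.33 and 2.29 FPKM in control 1, 2 and 3. Tgfbr1-203 had 0.00872, 0.0909 and 0.392 FPKM in knockdown 1, 2 and 3, against 1.92, 0 and 0.328 FPKM in control 1, 2 and 3. The starts of these transcripts lie 32994 bases apart and are those whose upstream bases are printed above.

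Csf3r, the receptor for the granulocyte factor G-CSF, had a steady total and 2 transcripts that moved against each other. The gene had 3.18, 3.23 and 4.0 FPKM in knockdown 1, 2 and 3, against 3.00, 3.14 and 3.49 FPKM in control 1, 2 and 3 (log2 fold change 0.08). Csf3r-201 had 3.09, 3.34 and 4.09 FPKM in knockdown 1, 2 and 3, against 1.32, 0.903 and 0.631 FPKM in control 1, 2 and 3. Csf3r-202 had 0.484, 0.145 and 0.395 FPKM in knockdown 1, 2 and 3, against 1.89, 2.40 and 3.04 FPKM in control 1, 2 and 3. The groups did not overlap in either transcript. The log2 fold changes were 1.22 and -1.35, and neither passed (limma adjusted p = 0.297 for both). Csf3r-201 held 86.5%, 95.8% and 91.2% of the summed transcript level in knockdown 1, 2 and 3, against 41.2%, 27.3% and 17.2% in control 1, 2 and 3. Both transcripts encode the same 837 codons, and Csf3r-202 starts 109 bases upstream of the RefSeq start, Csf3r-201 2633 bases downstream of it.

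The transcription factors of the lineage were low in both groups. Spi1, which encodes PU.1, had 1.71, 1.47 and 2.49 FPKM in knockdown 1, 2 and 3, against 1.77, 2.15 and 1.91 FPKM in control 1, 2 and 3, with knockdown libraries both lowest and highest (log2 fold change -0.04, limma). Irf8, its partner in macrophage development, ranged from 0.841 to 1.03 FPKM in knockdown and from 0.865 to 1.14 FPKM in control libraries and was not tested as a gene. Its 1 listed transcript, Irf8-201, had a higher mean, 2.19 FPKM, and a log2 fold change of -0.04 (limma adjusted p = 0.995).

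The 3 C1q genes, which encode the chains of the first complement component, had lower means in knockdown libraries, with overlapping groups. Without control 2 the median log2 fold change of the 3 genes was -0.00616 instead of -0.10, and 1 of the 3 was positive. C1qa had 48.3, 52.8 and 62.7 FPKM in knockdown 1, 2 and 3, against 54.6, 67.8 and 55.6 FPKM in control 1, 2 and 3. Control 2 was highest and knockdown 1 lowest (log2 fold change -0.12 in limma, -0.0207 without control 2 and -0.0368 without knockdown 1). C1qb ranged from 48.9 to 57.4 FPKM in knockdown and from 48.8 to 65.3 FPKM in control libraries (log2 fold change -0.08, limma). C1qc ranged from 23.2 to 27.6 FPKM in knockdown and from 25.0 to 31.1 FPKM in control libraries (log2 fold change -0.10, limma).

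The ratio of C1qb to C1qc stayed between 2.06 and 2.11 in knockdown and between 1.95 and 2.10 in control libraries. The ratio of C1qa to C1qc stayed between 1.90 and 2.28 in knockdown and between 2.15 and 2.18 in control libraries. Both ratios were taken from gene values. C1qc-201, the 1 listed C1qc transcript, ranged from 37.2 to 44.1 FPKM in knockdown and from 40.0 to 49.8 FPKM in control libraries. These values are above those of the gene, so the size of the ratios depends on the value used. The median deviation of the 3 genes from their own means over the libraries, on the log2(FPKM + 1) scale, was -0.05, -0.15 and 0.08 in knockdown 1, 2 and 3, against -0.07, 0.26 and -0.02 in control 1, 2 and 3.

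**Figure D4:**
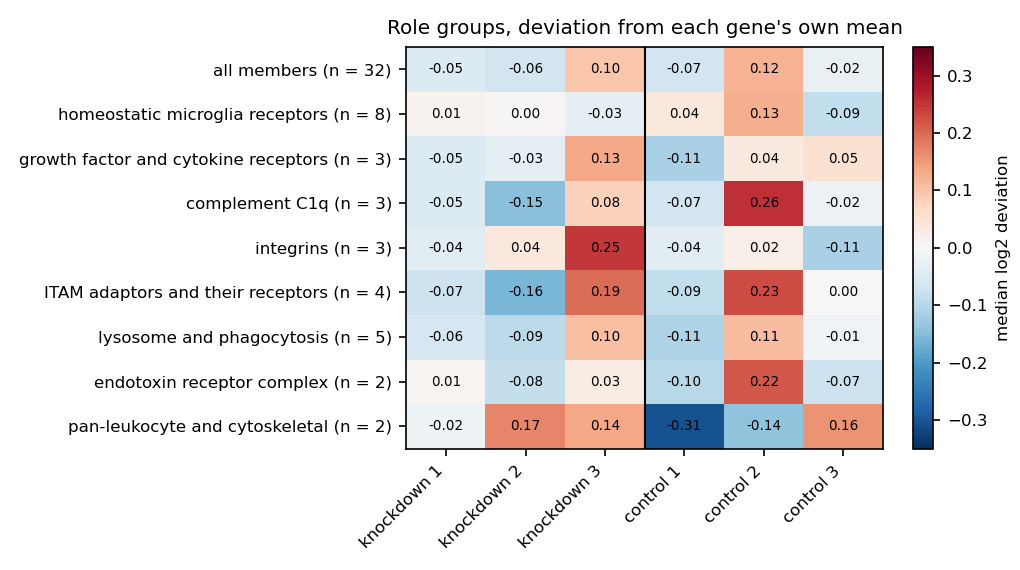
Median deviation of log2(FPKM + 1) from each gene's mean over the 6 libraries, for all tested members and for role groups with at least 2 tested members, with knockdown libraries left of the black line and control libraries right of it. Control 2 is high in the C1q (0.26) and ITAM groups (0.23) and knockdown 3 in the integrins (0.25), while the other libraries of each group are lower.

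Among the tested integrins, only the main Itgam model had groups that did not overlap, and in the sum of both Itgam models they overlapped. The main model of Itgam, the αM chain of complement receptor 3 (ENSMUSG00000030786.18), had 3.52, 3.21 and 3.86 FPKM in knockdown 1, 2 and 3, against 2.64, 0.667 and 1.74 FPKM in control 1, 2 and 3. The groups did not overlap. The means were 3.53 ± 0.326 FPKM in knockdown and 1.68 ± 0.987 FPKM in control libraries (SD, n = 3 each). The log2 fold change was 0.83, with a 95% interval of 0.20 to 1.45 (unadjusted limma p = 0.0168, adjusted p = 0.948, two-sided exact permutation p = 0.1). Without control 2, its lowest library, the log2 fold change was 0.519.

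The second model named Itgam (ENSMUSG00000108596.1, called Gm49368 in GENCODE M21) overlaps the first on the same strand. It was listed at 0, 0.248 and 0.294 FPKM in knockdown 1, 2 and 3, against 1.17, 1.72 and 1.90 FPKM in control 1, 2 and 3, so it ran in the other direction. The summed level of both models was 3.52, 3.46 and 4.15 FPKM in knockdown 1, 2 and 3, against 3.81, 2.38 and 3.64 FPKM in control 1, 2 and 3, and here the groups overlapped. The means of the sum were 3.71 ± 0.387 FPKM in knockdown and 3.28 ± 0.780 FPKM in control libraries (SD, n = 3 each; log2 difference 0.15, two-sided exact permutation p = 0.6). This sum was chosen after seeing the data. How fragments were divided between the 2 models is not stated, so the level of either model alone is uncertain.

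Transcripts of the main Itgam model also differed between libraries. Itgam-201 had 1.81, 1.81 and 3.06 FPKM in knockdown 1, 2 and 3, against 2.40, 0 and 1.86 FPKM in control 1, 2 and 3. Itgam-203 had 1.91, 1.58 and 1.01 FPKM in knockdown 1, 2 and 3 and was listed at 0 in each control library. Its mean was under the minimum for a test.

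**Figure D5:**
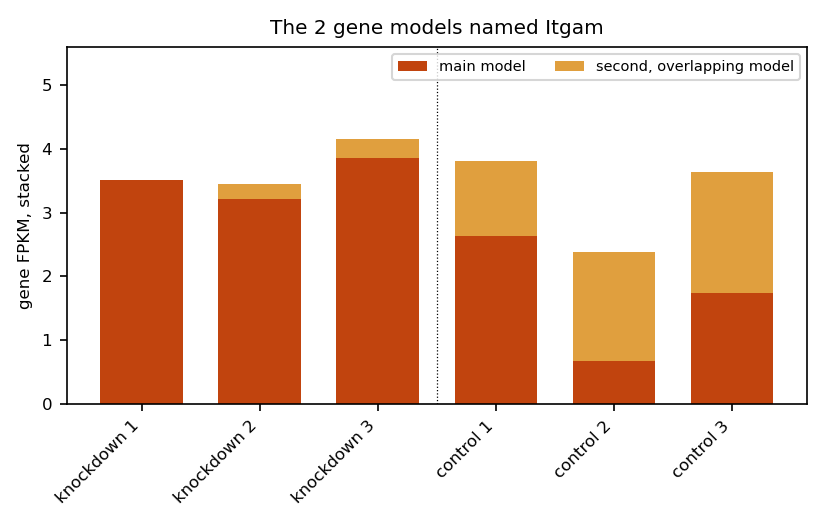
Gene FPKM of the 2 overlapping models named Itgam, stacked for each library, with knockdown libraries left of the dotted line and control libraries right of it. The main model (red) is taller in each knockdown library, the second model (yellow) in each control library, and the stacked heights of the groups overlap.

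Itgb2, the β2 chain that pairs with αM, had 1.89, 2.05 and 2.53 FPKM in knockdown 1, 2 and 3, against 1.62, 2.08 and 1.75 FPKM in control 1, 2 and 3, with overlap (log2 fold change 0.16, limma adjusted p = 0.948). Itgb5, an integrin chain that is also found on other brain cells, had 10.3, 10.7 and 11.5 FPKM in knockdown 1, 2 and 3, against 10.5, 10.9 and 10.7 FPKM in control 1, 2 and 3. Its log2 fold change was 0.01, and the sign turned with median-of-ratios scaling (-0.00968) and quantile normalization (-0.00781).

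Genes of the ITAM adaptors, which couple receptors to the kinase SYK, overlapped between groups, and the median deviation of the 4 genes was highest in control 2 (0.23). Tyrobp, which encodes DAP12, had 31.7, 26.3 and 36.1 FPKM in knockdown 1, 2 and 3, against 27.9, 46.2 and 35.3 FPKM in control 1, 2 and 3 (log2 fold change -0.19, and -0.0134 without control 2). Trem2, the lipid receptor that signals through DAP12, ranged from 3.45 to 4.51 FPKM in knockdown and from 3.67 to 4.38 FPKM in control libraries. Fcer1g, the Fc receptor γ chain, ranged from 9.83 to 15.5 FPKM in knockdown and from 12.7 to 16.7 FPKM in control libraries (log2 fold change -0.18). Fcgr3, a low-affinity receptor for IgG, had 8.53, 6.72 and 9.73 FPKM in knockdown 1, 2 and 3, against 7.18, 6.87 and 7.39 FPKM in control 1, 2 and 3, so that knockdown 2 was lowest and knockdown 3 highest (log2 fold change 0.18, limma adjusted p = 0.948).

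The 5 tested lysosomal and phagocytic genes overlapped between groups. Ctsd, the aspartic protease cathepsin D, which all brain cells make, had 99.4, 107 and 108 FPKM in knockdown 1, 2 and 3, against 95.9, 110 and 102 FPKM in control 1, 2 and 3. Its log2 fold change was 0.03 and turned to -0.000415 with median-of-ratios scaling. Ctss, the cysteine protease cathepsin S, ranged from 57.9 to 68.3 FPKM in knockdown and from 62.5 to 65.3 FPKM in control libraries. Cd68, a lysosomal membrane protein, had 6.96, 7.85 and 8.20 FPKM in knockdown 1, 2 and 3, against 7.14, 12.4 and 6.65 FPKM in control 1, 2 and 3. Control 2 stood above the other 5 libraries, and without it the log2 fold change of Cd68 turned from negative (-0.12) to 0.133. Laptm5, a lysosomal protein of blood cells, ranged from 8.81 to 10.5 FPKM in knockdown and from 8.90 to 10.3 FPKM in control libraries. Lyz2, which encodes lysozyme, ranged from 5.28 to 7.04 FPKM in knockdown and from 4.86 to 8.47 FPKM in control libraries.

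Both tested genes linked to endotoxin recognition overlapped between groups. Cd14, the co-receptor of TLR4, ranged from 2.49 to 2.90 FPKM in knockdown and from 2.08 to 3.11 FPKM in control libraries. Ly86, which encodes MD-1, the partner of the TLR4 homologue RP105, had 3.40, 3.32 and 4.03 FPKM in knockdown 1, 2 and 3, against 3.79, 4.56 and 3.40 FPKM in control 1, 2 and 3 (log2 fold change -0.10, and -0.0071 without control 2).

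Aif1, which encodes the actin-binding protein IBA1 used to stain microglia, had 6.72, 7.06 and 8.68 FPKM in knockdown 1, 2 and 3, against 4.04, 5.49 and 7.67 FPKM in control 1, 2 and 3. The knockdown values were higher on average, and control 3 lay among them (log2 fold change 0.36, limma adjusted p = 0.948). Cd53, a leukocyte tetraspanin, ranged from 4.14 to 5.47 FPKM in knockdown and from 4.23 to 4.91 FPKM in control libraries. Olfml3, a secreted matrix protein of microglia, had 3.24, 3.18 and 0.842 FPKM in knockdown 1, 2 and 3, against 0.705, 1.16 and 2.88 FPKM in control 1, 2 and 3. It was high in knockdown 1, knockdown 2 and control 3 and low in the other 3 libraries (log2 fold change 0.40, limma adjusted p = 0.948).

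The spread of the members between libraries was like that of other genes. The median ratio of the highest to the lowest library was 1.41 for tested members and 1.42 for all tested genes. This ratio was under 1.5 in 19 of 32 members, against 59.8% of all tested genes, and over 2 in 5 members, against 14.9%. Control 2 held the highest value of 14 members and knockdown 3 of 12, while knockdown 2 held the lowest value of 11 members and control 1 of 9. The median deviation of the 32 members was -0.05, -0.06 and 0.10 in knockdown 1, 2 and 3, against -0.07, 0.12 and -0.02 in control 1, 2 and 3, so 1 library of each group stood above the rest.

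Transcript shares were set beside the same measure over the table as a whole. Of 15 member genes with at least 2 listed transcripts, 14 had a share in every library. Among these 14, P2ry12, Cx3cr1 and Csf3r had a transcript whose share did not overlap between groups, against 19.6% of 6003 such genes in the table. The main Itgam model was not counted, because it had no share in control 2, where its listed transcripts were at 0. In the other libraries Itgam-201 held 48.6%, 53.5% and 75.2% in knockdown 1, 2 and 3, against 100% in control 1 and control 3. Within a group, a share ranged over more than 50 percentage points in 5 member genes (P2ry12, Cx3cr1, Tgfbr1, Gpr34 and Aif1), against 31.2% of genes in the table. The share of Gpr34-201 was 86.8%, 8.43% and 29.4% in knockdown 1, 2 and 3, against 18.0%, 99.6% and 15.4% in control 1, 2 and 3. The share of Aif1-201 was 0%, 80.1% and 0% in knockdown 1, 2 and 3, against 74.3%, 0% and 0% in control 1, 2 and 3. In both genes the shares differed as much within a group as between groups. Of the 45 tested member transcripts, 3 had groups that did not overlap (P2ry12-202, Csf3r-201 and Csf3r-202), against 8.8% of all tested transcripts (4.57% higher and 4.22% lower). The same 3 had an unadjusted limma p under 0.05, 1 higher and 2 lower, against 3.81% of all tested transcripts (1.94% higher and 1.87% lower).

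Ligands and signalling partners of the microglial receptors were followed in a list of 18 genes, of which 16 were tested. Limma called 0 of them, and 1 was higher at an unadjusted p under 0.05, against 2.07% of all tested genes: Tgfbr2, the type II TGF-β receptor. It had 1.97, 1.66 and 1.54 FPKM in knockdown 1, 2 and 3, against 1.19, 1.12 and 1.20 FPKM in control 1, 2 and 3 (log2 fold change 0.33, limma adjusted p = 0.948). The median log2 fold change of the list was 0.03, with 10 positive and 6 negative genes. Groups did not overlap in 3 genes, Tgfbr2 and Itgav higher (against 4.45% of all tested genes) and Nrros lower (against 3.47%). Itgav, an integrin chain that helps to release active TGF-β, had 5.41, 5.55 and 5.04 FPKM in knockdown 1, 2 and 3, against 0.816, 4.70 and 4.24 FPKM in control 1, 2 and 3, with control 1 far below the rest (log2 fold change 0.74, limma adjusted p = 0.948). Nrros, which presents latent TGF-β on microglia, had 1.43, 1.14 and 1.32 FPKM in knockdown 1, 2 and 3, against 1.57, 1.59 and 1.61 FPKM in control 1, 2 and 3 (log2 fold change -0.18, limma adjusted p = 0.948). Cx3cl1, which encodes fractalkine, the ligand of CX3CR1, had 134, 17.3 and 170 FPKM in knockdown 1, 2 and 3, against 148, 165 and 161 FPKM in control 1, 2 and 3. Knockdown 2 was far below the other 5 libraries, among which the groups overlapped (log2 fold change -1.08, limma adjusted p = 0.948). Il34, the neuronal ligand of CSF1R, had 24.1, 26.2 and 21.6 FPKM in knockdown 1, 2 and 3, against 23.4, 26.7 and 26.0 FPKM in control 1, 2 and 3.

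Other microglia-enriched genes numbered 37, of which 31 were listed and 25 tested. Of these 25, limma called 0 and 0 had an unadjusted p under 0.05, with 11 positive and 14 negative fold changes and a median of -0.01. Sall1, a transcription factor of microglial identity, had 5.71, 4.31 and 4.26 FPKM in knockdown 1, 2 and 3, against 4.30, 3.56 and 3.61 FPKM in control 1, 2 and 3, with overlap.

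Genes of disease-associated microglia did not pass either. Of 20 genes, 16 were tested, 0 were called by limma and 1 was higher at an unadjusted p under 0.05 (2.07% of all tested genes), with 9 positive and 7 negative fold changes and a median of 0.01. That gene was Lgals3bp, a secreted galectin-binding protein that interferon also induces, with 6.35, 4.34 and 4.09 FPKM in knockdown 1, 2 and 3, against 1.98, 2.15 and 2.72 FPKM in control 1, 2 and 3 (log2 fold change 0.84, limma adjusted p = 0.948). Apoe, the main lipid carrier of the brain, was at 318 ± 71.1 FPKM in knockdown and 340 ± 68.9 FPKM in control libraries (SD, n = 3 each). The list members Itgax, Clec7a, Gpnmb and Lgals3 had no row analysed here.

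Complement genes beyond C1q were taken in a list that also holds C1q-like genes. Of its 20 genes, 11 were tested, with 0 calls by limma, 7 positive and 4 negative fold changes and a median of 0.02. C1ra, a serine protease that C1q activates, was the 1 gene with an unadjusted limma p under 0.05, and it was higher (2.07% of all tested genes). It had 1.32, 1.55 and 1.07 FPKM in knockdown 1, 2 and 3, against 0.841, 0.580 and 1.07 FPKM in control 1, 2 and 3. The groups overlapped in C1ra and in every other tested gene of this list. C1s1, which encodes the protease that C1r activates in turn, was too low to be tested. It had 0.690, 0.925 and 0.728 FPKM in knockdown 1, 2 and 3, against 0.548, 0.291 and 0.610 FPKM in control 1, 2 and 3, higher without overlap (4.45% of all tested genes). C4b, the component cleaved next in the cascade, was at 10.0 ± 1.63 FPKM in knockdown and 10.2 ± 1.07 FPKM in control libraries (SD, n = 3 each). Of 23 inflammatory cytokine and toll-like receptor genes, 11 were listed and 5 tested, with 0 calls, 0 unadjusted p under 0.05 and a median log2 fold change of -0.04 (limma). Il18, a cytokine released by the inflammasome, was the most abundant, at 24.9, 24.0 and 26.8 FPKM in knockdown 1, 2 and 3, against 25.9, 32.5 and 22.5 FPKM in control 1, 2 and 3, with overlap. Il1b, a cytokine of activated microglia, ranged from 0.468 to 0.815 FPKM in knockdown and from 0.778 to 1.16 FPKM in control libraries. Myd88, the adaptor of these receptors, had 2.35, 2.59 and 2.52 FPKM in knockdown 1, 2 and 3, against 2.16, 1.99 and 2.15 FPKM in control 1, 2 and 3. Nfkbia, the inhibitor of NF-κB, had 21.2, 20.0 and 20.3 FPKM in knockdown 1, 2 and 3, against 24.9, 21.4 and 22.4 FPKM in control 1, 2 and 3. The groups of both genes did not overlap (limma adjusted p = 0.948 for both), Myd88 being higher (4.45% of all tested genes) and Nfkbia lower (3.47%). Cxcl10, an interferon-induced chemokine too low to be tested, had 1.59, 0.177 and 0.247 FPKM in knockdown 1, 2 and 3, against 0.0651, 0.159 and 0.0336 FPKM in control 1, 2 and 3, with knockdown 1 far above the rest.

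Markers of other cells moved between libraries as well. Of 11 genes of border macrophages and antigen presentation, 6 were listed, and their summed level was 4.67, 3.96 and 6.03 FPKM in knockdown 1, 2 and 3, against 4.89, 11.3 and 4.95 FPKM in control 1, 2 and 3. Cd74, the invariant chain of MHC class II, made up 4.34 FPKM of the sum in control 2. Of 8 erythrocyte genes, 7 were listed, with a summed level of 436, 449 and 701 FPKM in knockdown 1, 2 and 3, against 509, 1776 and 663 FPKM in control 1, 2 and 3. Of 8 meningeal genes, 6 were listed, with a summed level of 4.71, 4.38 and 7.98 FPKM in knockdown 1, 2 and 3, against 5.61, 13.8 and 5.03 FPKM in control 1, 2 and 3. Control 2 was highest in all 3 lists and knockdown 3 second, the same libraries that held the highest values of most members. The part of these cells in the member values was not tested.

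Markers of blood leukocytes were few. Of 13 genes of monocytes, neutrophils and mast cells, 4 were listed, with a summed level from 21.3 to 22.1 FPKM in knockdown and from 17.9 to 28.6 FPKM in control libraries. Of 12 lymphocyte genes, Cd4 alone was listed. Interferon response genes summed to 131, 63.9 and 65.2 FPKM in knockdown 1, 2 and 3, against 62.9, 68.0 and 84.3 FPKM in control 1, 2 and 3, so that knockdown 1 stood apart. Cx3cr1 was at 8.82 FPKM in knockdown 1 and at 8.23 FPKM in knockdown 2, whose interferon sum lay within the control range. A link between interferon genes and Cx3cr1 was not tested. The 10 oligodendrocyte markers summed to 1926, 1427 and 1610 FPKM in knockdown 1, 2 and 3, against 1534, 1201 and 1292 FPKM in control 1, 2 and 3, with overlap. Their log2 fold changes were positive in 10 of 10 genes (55.7% of all tested genes). The median was 0.32, between 0.187 (array weights) and 0.453 (without knockdown 2) under the alternatives. Of the 10 markers, 2 had an unadjusted limma p under 0.05, both higher (2.07% of all tested genes). Limma called 0 of them. Of 10 astrocyte markers 7 had a positive log2 fold change (55.7% of all tested genes), with a median of 0.08. An unadjusted limma p under 0.05 was found for 2, both higher (2.07% of all tested genes). Both were higher in every knockdown library than in any control library (4.45% of all tested genes). These were Slc1a2, a glutamate transporter, at 88.1, 69.8 and 69.8 FPKM in knockdown 1, 2 and 3, against 67.8, 59.3 and 56.5 FPKM in control 1, 2 and 3, and Gja1, a gap junction protein. Gja1 had 11.0, 9.03 and 8.82 FPKM in knockdown 1, 2 and 3, against 6.15, 8.0 and 7.74 FPKM in control 1, 2 and 3. The part of these cells in the member values was likewise not tested.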

How the data were processed

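FPKM values per gene and per transcript were deposited for 6 libraries, per the file headers. The submitters' processing notes name FastQC, cutadapt, HISAT2 and StringTie without versions, and no source used here gives the build or annotation. Member rows had their identifier in GENCODE M21 (GRCm38) in 35 of 35 cases, 32 with the same coordinates. Counts were not used here, so depth is unknown and no counting interval is given. FPKM of the listed genes summed to 256047 to 285833 per library. Each listed gene had a mean above 0.5 FPKM in at least 1 group, and an empty line of each table was left out.

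Values were tested as log2(FPKM + 1), which understates changes of low features, with limma 3.58.1 in R 4.3.3, knockdown against control, with an intensity trend. A feature needed a mean of 1 FPKM, and p-values were adjusted by Benjamini-Hochberg over each whole table (threshold 0.05). The functions were tested on simulated data. Two-sided exact permutation tests served for single values. Nothing in the labels ties the libraries of a group to different animals, and p-values then measure only spread among these samples, possibly technical. Lists are described by counts and medians, without a list test.

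The members and lists were chosen with earlier results of these data known. Library values are given for Cx3cr1, P2ry12 and their transcripts and, in each role group, for the member with the highest mean and that with the smallest p. Further members, transcripts and list genes given by library were chosen after their values were seen. Alternatives changed the pseudocount, the minimum, the scaling, the variance model, the weights of libraries and the set of libraries, or added the replicate number as a block.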

Additional observations from a re-analysis of the deposited data

How the results depend on the processing

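Of 393 values under alternatives, 20 turned sign, 6 lost and 1 gained a call, and 11 counts of calls moved by over 1.5 times. Limma called no member gene under any of the alternatives. The member median, -0.02, lay between -0.0823 and 0.0323 and was above 0 with a common sum (0.0323), without knockdown 2 (0.0104) and without control 2 (0.0197). It was -0.0448 without Itgam, Ctsd, Itgb5 and Tgfbr1, a choice made after seeing the data. Genes called numbered 1 with a common FPKM sum, 3 with array weights and 0 to 3 with a library left out (3 without control 1, 1 without knockdown 1 or control 2), against 0. Transcripts called numbered 8 where a mean of 5 FPKM was needed, 44 with no intensity trend and 11 to 32 with a library left out (11 without knockdown 2, 32 without control 2, 29 without control 3), against 19. P2ry12-202 was negative in 15 of 15 alternatives (-6.62 to -3.36, limma adjusted p from 0.0164 to 0.622) and called in 9. It lost its call where a mean of 5 FPKM was needed (-3.57, adjusted p = 0.374) and ranged from -3.84 to -3.36 with a library left out. A common sum moved the median of all genes to 0.0709.

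The replicate block called 0 transcripts and 0 genes and left P2ry12-202 at -3.57 (limma adjusted p = 0.622). Libraries with the same number had deviations that correlated at 0.184, -0.127 and -0.0708, so the numbers were not taken as pairs. Control 2 correlated best with knockdown 3 (0.269).

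Small or uneven values turned sign. With a pseudocount of 0.1, Cx3cr1-201 was -0.0556 and P2ry12-203 -0.135, and with array weights P2ry12-203 was -0.173. Itgb5 was -0.00968 and Ctsd -0.000415 with median-of-ratios scaling, and Itgb5 -0.00781 with quantile normalization. With a library left out, the log2 fold change ranged from -0.197 to 1.42 for Cx3cr1-201, from -0.229 to 0.929 for P2ry12-203, from -0.0167 to 0.675 for P2ry12-205, from -0.00754 to 0.122 for P2ry12, from -0.0241 to 0.0494 for Itgb5, from -0.0216 to 0.0766 for Ctsd, from -0.144 to 0.0124 for Csf1r, from -0.183 to 0.0666 for Spi1 and from -0.271 to 0.133 for Cd68. Share differences then ranged from -11.4 to 25.0 percentage points for P2ry12-203, from -0.373 to 10.0 for P2ry12-205 and from -1.10 to 19.3 for Cx3cr1-203, each lowest without knockdown 3. Where no value above shows it, the cause was not tested.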
